A study of Mus musculus with 6 samples.

Results

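Cell-surface heparan sulfate proteoglycans and the enzymes that edit their chains were followed in mouse oviductal epithelial (MOE) cells, as 10 genes chosen by symbol: the glypicans Gpc1, Gpc3, Gpc4 and Gpc6, the syndecans Sdc1, Sdc2, Sdc3 and Sdc4, and the extracellular sulfatases Sulf1 and Sulf2. All 10 were present in the tables, among 22800 gene symbols. The MOE line was derived from oviducts of outbred CD1 female mice, pooled from several animals, and carries no engineered change. MOEHIGH cells (passages 90, 103 and 113) were obtained by serially passaging MOELOW cells (passages 8, 9 and 10), and total RNA depleted of ribosomal RNA was sequenced from 1 culture at each passage, which gave 3 libraries a group. The 3 libraries of a group are passages of 1 line, so the p-values below measure the spread between passages and not between animals or lines. The heading over the values did not match the passage of the sample in any table. In 3 tables it named a passage of the other group (113 in that of passage 8, 9 in that of passage 90 and 10 in that of passage 103), in 2 another passage of the same group, and in 1 no passage. Each library was identified by its sample record, and the groups, the values by passage and the results with a library left out all rest on that assignment. The headings put that assignment in doubt, and the passage within a group was not tested. For the groups, the direction of Gpc4 can be set beside the paper, which lists it as lower in MOEHIGH cells. By sample record, Gpc4 averaged 0.0438 FPKM in MOEHIGH libraries and 75.9 FPKM in MOELOW libraries, the same direction. Of the 3 tables whose heading named the other group, that of passage 8 had 86.8 FPKM of Gpc4. Those of passages 90 and 103 had 0.0202 and 0.0404 FPKM, so each lay with the group of its sample record.

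Heparan sulfate is a long sulfated sugar chain attached to a small number of core proteins. Glypicans are held in the outer leaflet of the plasma membrane by a lipid (GPI) anchor, whereas syndecans span the membrane and bind cytoskeletal adaptors through a short cytoplasmic tail. The chains bind growth factors and morphogens such as FGFs, Wnts, Hedgehogs and BMPs, and the pattern of sulfation sets which ligands are held. Sulf1 and Sulf2 act outside the cell and remove sulfate from the 6-O position of glucosamine in finished chains.

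Expression was given as FPKM, fragments per kilobase of transcript scaled to the mapped fragments of the library, so that levels of different genes can be set side by side within a library. The number of reads per library is unknown. Summed FPKM over all genes ran between 597486.3 and 770709.2 in the MOEHIGH libraries and between 625095.3 and 684209.3 in the MOELOW libraries, and genes at 1 FPKM or more numbered 10208 to 10292 in MOEHIGH and 10888 to 10987 in MOELOW. Changes were tested with limma on the scale log2(FPKM + 1). The 11621 genes whose mean over the 6 libraries reached 0.5 FPKM entered the fit, and p-values were adjusted over all of them with a threshold of 0.05. A log2 fold change is MOEHIGH minus MOELOW on that scale, which understates the change of genes at low levels. Values of a group are given in passage order.

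Of the 9 members tested, 6 were lower in MOEHIGH cells (Gpc4, Gpc6, Sdc2, Sdc3, Sdc4 and Sulf1), where 32.1% of all tested genes were called lower. Only Gpc1 was called higher, where 24.3% of all tested genes were. Sdc1 and Sulf2 were not called, and Gpc3 was not tested because its mean was below the filter. The median log2 fold change of the 9 tested members was -2.04, against -0.05 over all tested genes. When the test asked for a change beyond 2-fold, 5 members were lower (Gpc4, Gpc6, Sdc2, Sdc3 and Sulf1), where 7.8% of all genes were, and none was higher. All 3 MOEHIGH values lay below all 3 MOELOW values for 6 members, as they did for 35.5% of tested genes, and above them for Gpc1 and Sdc1, as they did for 28.5% of tested genes.

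**Figure D1:**
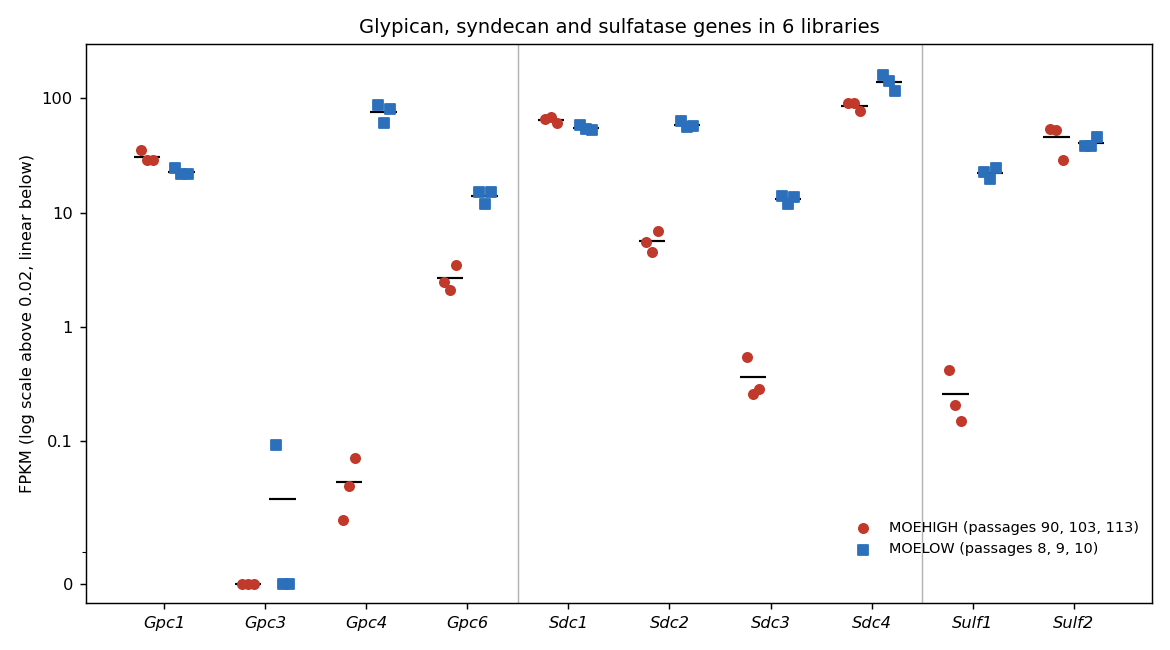
FPKM of each member (vertical axis, log scale above 0.02 and linear below) in the 3 MOEHIGH libraries (circles) and the 3 MOELOW libraries (squares), with a bar at each group mean. Gpc4 is below 0.1 FPKM in all MOEHIGH libraries and above 60 FPKM in all MOELOW libraries, whereas the circles and squares of Sulf2 overlap.

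Gpc4 had the largest fall of the 10 genes. It encodes a glypican of the subgroup that also holds Gpc1, Gpc2 and Gpc6, and its gene lies on the X chromosome (X:52051007-52164923, mm10). It was present at 0.0202, 0.0404 and 0.0709 FPKM in MOEHIGH cells, against 86.8, 60.7 and 80.1 FPKM in MOELOW cells. No value lay between the groups. Ranked by level among the 22800 symbols of a library, Gpc4 stood at 12320 to 13266 in MOEHIGH cells and at 1126 to 1540 in MOELOW cells. The log2 fold change was -6.19 (SE 0.15, limma adjusted p = 1.4e-07), and it was -10.56 with a pseudocount of 0.01 FPKM in place of 1. The 3 genes closest to Gpc4 in pattern, by Euclidean distance of log2(FPKM + 1) over the 6 libraries among the other 11620 tested genes, were Ctsh (distance 0.358), Lox (0.669) and Aldh1a2 (0.742). Ctsh encodes the lysosomal protease cathepsin H, Lox encodes lysyl oxidase, which crosslinks collagen and elastin, and Aldh1a2 encodes a retinoic acid-producing enzyme.

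Gpc3, whose product inhibits Hedgehog signaling, is the next glypican gene along the X chromosome (X:52272426-52613974), 107502 bases beyond Gpc4. It was listed at 0 in all 3 MOEHIGH libraries and in passages 9 and 10 of MOELOW, and at 0.0920 FPKM in passage 8. No fold change can be given for it. The 2 genes before Gpc4 (1700080O16Rik and Usp26), and Mir717 and A630012P03Rik, which lie within or overlap the span of Gpc3, were listed at 0 in every library. The nearest gene on the Gpc4 side with a mean of 0.5 FPKM or more was Hs6st2, 369.3 kb away (X:51386637-51681705), which encodes a heparan sulfate 6-O-sulfotransferase and was also lower in MOEHIGH cells, as described below. On the Gpc3 side it was Phf6, 298.2 kb away, which encodes a PHD finger protein and was not called (log2 fold change 0.16, adjusted p = 0.531). Beyond Hs6st2 on the Gpc4 side, the next listed gene was Mbnl3, which was higher in MOEHIGH cells (log2 fold change 0.68, adjusted p = 0.00171). These neighbors with signal were looked up after the values were seen.

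Upstream sequence is shown for the pair of neighboring X-linked glypicans and for Sdc3 and Sdc1, a syndecan that fell and one that did not. Each is the 200 bases before the RefSeq start (GRCm38.p6), 5' to 3' on the strand of the gene. Capitals mark the GC box GGGCGG or its reverse complement CCGCCC, the element bound by Sp1-family factors.
Gpc4 (chrX:52164924-52165123, minus strand): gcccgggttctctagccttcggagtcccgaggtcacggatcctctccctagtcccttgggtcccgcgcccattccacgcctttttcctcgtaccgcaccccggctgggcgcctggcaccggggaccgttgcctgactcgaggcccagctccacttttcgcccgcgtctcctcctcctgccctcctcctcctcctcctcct
Gpc3 (chrX:52613975-52614174, minus strand): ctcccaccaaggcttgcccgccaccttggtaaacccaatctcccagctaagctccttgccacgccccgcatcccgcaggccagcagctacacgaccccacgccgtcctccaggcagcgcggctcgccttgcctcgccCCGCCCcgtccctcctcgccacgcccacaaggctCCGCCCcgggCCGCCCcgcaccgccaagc
Sdc3 (chr4:130792337-130792536, plus strand): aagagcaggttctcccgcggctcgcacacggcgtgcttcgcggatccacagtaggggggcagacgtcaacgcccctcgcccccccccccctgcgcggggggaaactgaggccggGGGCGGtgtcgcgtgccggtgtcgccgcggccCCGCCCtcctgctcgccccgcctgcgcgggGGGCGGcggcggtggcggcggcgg
Sdc1 (chr12:8771196-8771395, plus strand): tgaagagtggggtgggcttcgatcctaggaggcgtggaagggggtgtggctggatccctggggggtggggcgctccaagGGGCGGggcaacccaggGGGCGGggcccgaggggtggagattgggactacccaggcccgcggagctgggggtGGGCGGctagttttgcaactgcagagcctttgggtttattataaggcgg
The letters GGGCGG or CCGCCC do not occur in the Gpc4 window and occur 3 times in each of the other 3. They occur 4 times in the window of Sdc4, which fell, and 1 and 0 times in the windows of the 2 starts of Sulf2, which was not called. Across all 32851 RefSeq promoter windows of the same length, 31.0% hold at least 1. The 4 windows hold 17, 20, 31 and 10 CpG pairs in the order shown, against a median of 5 over all windows, and TATAAA, which 9.96% of windows hold, occurs in none of them. Promoters of 6 of the 10 members (Gpc3, Gpc4, Sdc1, Sdc3, Sdc4 and Sulf2) were matched, and those of Gpc1, Gpc6, Sdc2 and Sulf1 were not. These matches are a description of the sequence.

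Gpc6, a glypican related to Gpc4 (14:116924920-117979529), was lower as well, though it stayed above 2 FPKM. Its values were 2.47, 2.11 and 3.46 FPKM in MOEHIGH cells, against 15.2, 11.9 and 15.1 FPKM in MOELOW cells (log2 fold change -2.04, SE 0.16, adjusted p = 2.99e-05). Gpc1, a widely expressed glypican (1:92831645-92860211), went the other way by a small amount. It had 35.2, 28.7 and 29.0 FPKM in MOEHIGH cells, against 24.8, 21.8 and 21.8 FPKM in MOELOW cells, and the groups did not overlap. Its log2 fold change of 0.42 (SE 0.12, adjusted p = 0.0162) was no longer past the threshold when passage 9 (adjusted p = 0.0668) or passage 10 (adjusted p = 0.0628) of MOELOW was left out, nor was it at a threshold of 0.01. The genes closest to Gpc1 in pattern were Tti1 (distance 0.127), which encodes a cofactor of PI3K-related kinases, Afg3l2 (0.187), a mitochondrial protease, and Pwp1 (0.203), a ribosome biogenesis factor.

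The main glypican differed between the groups. Summed over the 4 genes, glypicans reached 33.7 ± 3.60 FPKM in MOEHIGH cells and 112.7 ± 16.6 FPKM in MOELOW cells (SD, n = 3 each). Gpc1 made up 93.4%, 93.0% and 89.1% of that sum in MOEHIGH cells, against 19.6%, 23.1% and 18.6% in MOELOW cells. Gpc4 made up 0.0534%, 0.131% and 0.218% in MOEHIGH cells, against 68.4%, 64.3% and 68.5% in MOELOW cells. Of the glypicans outside the 10 genes, named here after their values were seen, Gpc2 had 0, 0.0232 and 0 FPKM in MOEHIGH cells, against 2.64, 2.14 and 3.37 FPKM in MOELOW cells, and Gpc5 was listed at 0 in all libraries but passage 8.

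**Figure D2:**
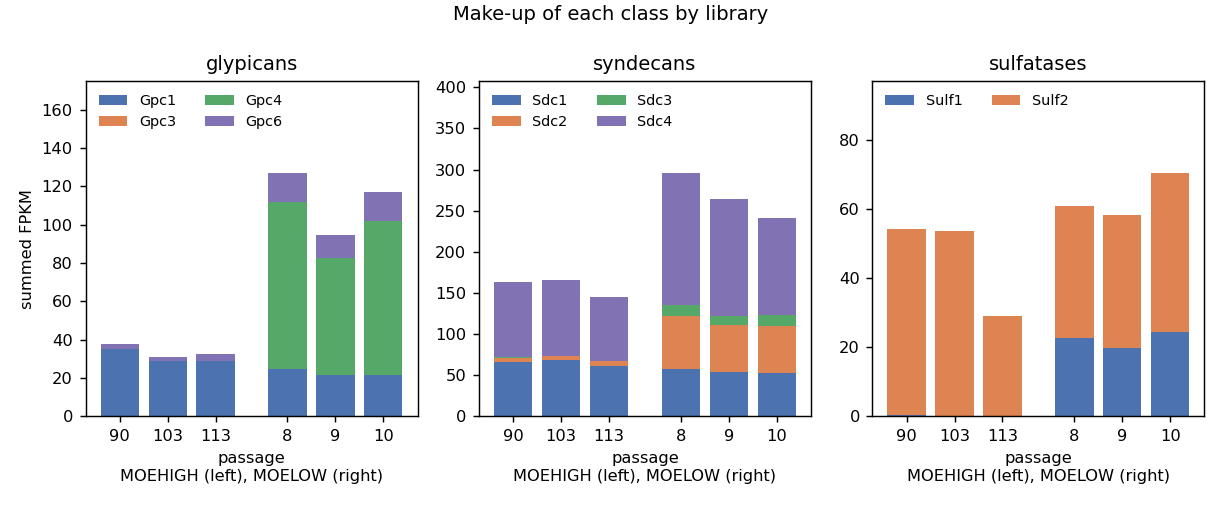
Summed FPKM (vertical axis) of the glypicans, syndecans and sulfatases in each library (horizontal axis, passage number, with MOEHIGH on the left of each panel), stacked by gene. Gpc4 fills 64.3% to 68.5% of the glypican bar in MOELOW and none that can be seen in MOEHIGH, and Sulf1 reaches at most 0.414 FPKM in MOEHIGH.

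Among the syndecans, Sdc2 and Sdc3 fell most. Sdc2 (15:32920723-33034721) encodes the syndecan characteristic of fibroblasts and other mesenchymal cells. It had 5.53, 4.49 and 6.90 FPKM in MOEHIGH cells, against 63.6, 56.3 and 57.2 FPKM in MOELOW cells (log2 fold change -3.19, SE 0.15, adjusted p = 1.58e-06). Sdc3 (4:130792537-130826318), best known from nerve and muscle, had 0.544, 0.255 and 0.283 FPKM in MOEHIGH cells, against 14.1, 12.0 and 13.6 FPKM in MOELOW cells (log2 fold change -3.39, SE 0.13, adjusted p = 6.53e-07). Every MOEHIGH library was below 1 FPKM for Sdc3.

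Sdc4 (2:164424247-164443188), a widely expressed syndecan of focal adhesions, was the most abundant of the 10 genes in all 6 libraries. It had 90.9, 91.6 and 77.4 FPKM in MOEHIGH cells, against 159.9, 142 and 117 FPKM in MOELOW cells. The groups did not overlap and Sdc4 fell with a log2 fold change of -0.67 (SE 0.14, adjusted p = 0.00414), which did not pass the test against a 2-fold change. Sdc1 (12:8771396-8793716), the main syndecan of epithelia and plasma cells, had 65.7, 68.9 and 60.6 FPKM in MOEHIGH cells, against 57.9, 54.3 and 52.7 FPKM in MOELOW cells. All MOEHIGH values lay above all MOELOW values, but the log2 fold change of 0.24 (95% interval 0.01 to 0.46, adjusted p = 0.0691) was not called. It was called when passage 113 was left out (0.29, adjusted p = 0.0161).

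The 4 syndecans summed to 157.7 ± 11.0 FPKM in MOEHIGH cells and 266.7 ± 27.5 FPKM in MOELOW cells. Sdc4 held 53.3% to 55.9% of the sum in MOEHIGH cells, close to its 48.6% to 54.1% in MOELOW cells. Sdc1 held 40.4% to 41.7% in MOEHIGH cells, against 19.6% to 21.9% in MOELOW cells. Sdc2 held 2.72% to 4.76% in MOEHIGH cells, against 21.3% to 23.8% in MOELOW cells. Sdc4 and Sdc1 thus made up nearly the whole syndecan sum in MOEHIGH libraries, whereas the ranges of Sdc2 and Sdc1 overlapped in MOELOW libraries.

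The sulfatases Sulf1 and Sulf2 catalyze the same reaction but differed in their change. Sulf1 (1:12692197-12861192) had 0.414, 0.204 and 0.148 FPKM in MOEHIGH cells, against 22.8, 19.7 and 24.6 FPKM in MOELOW cells (log2 fold change -4.22, SE 0.13, adjusted p = 2.95e-07). Sulf2 (2:166073899-166155683) had 54.0, 53.4 and 29.0 FPKM in MOEHIGH cells, against 38.2, 38.5 and 45.8 FPKM in MOELOW cells. Passages 90 and 103 were above every MOELOW library for Sulf2 and passage 113 was below every one. The log2 fold change of Sulf2 was 0.10 (95% interval -0.43 to 0.64, adjusted p = 0.727). It was 0.39 (adjusted p = 0.0134) without passage 113, and -0.04 without passage 90 or without passage 103.

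Sulf2 transcript exceeded Sulf1 transcript 130-, 262- and 196-fold in MOEHIGH cells, and 1.67-, 1.96- and 1.87-fold in MOELOW cells. Sulf2 was 99.2% to 99.6% of the sulfatase sum in MOEHIGH cells and 62.6% to 66.2% in MOELOW cells. The sum itself was 45.7 ± 14.3 FPKM in MOEHIGH cells and 63.2 ± 6.39 FPKM in MOELOW cells, and the passage 113 value of 29.2 FPKM was the lowest.

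Ordered by level, MOEHIGH cells had Sdc4, Sdc1, Sulf2, Gpc1, Sdc2, Gpc6, Sdc3, Sulf1, Gpc4 and Gpc3 from high to low. The neighbors Sulf2 and Gpc1, and Sdc3 and Sulf1, overlapped in range. In MOELOW cells the order was Sdc4, Gpc4, Sdc2, Sdc1, Sulf2, Gpc1, Sulf1, Gpc6, Sdc3 and Gpc3, with overlap between Gpc4 and Sdc2, Sdc2 and Sdc1, Gpc1 and Sulf1, and Gpc6 and Sdc3. The 10 genes together summed to 237.1 ± 26.4 FPKM in MOEHIGH cells and 442.7 ± 35.5 FPKM in MOELOW cells. Passage 8 had the highest MOELOW value for 7 of the 9 tested members. The share over all tested genes was not computed for this count. Passage 8 also had the highest summed FPKM over all genes of the MOELOW libraries (684209.3).

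**Figure D3:**
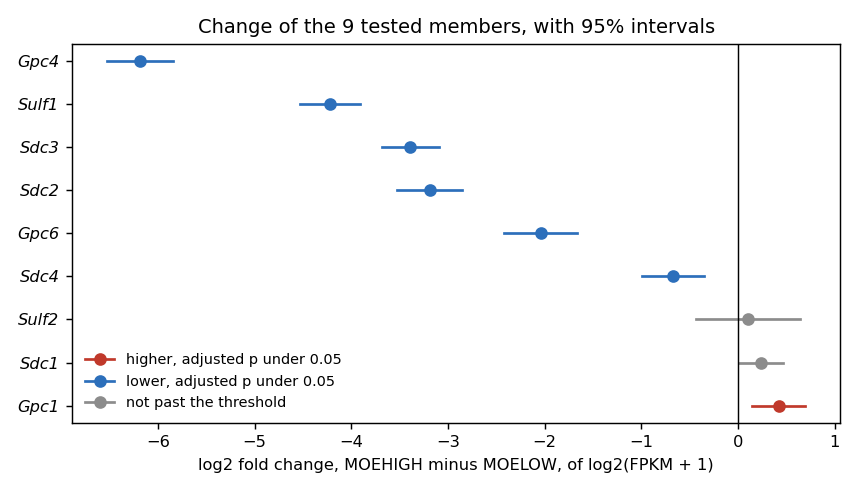
log2 fold change, MOEHIGH minus MOELOW, of log2(FPKM + 1) for the 9 tested members (horizontal axis), with 95% intervals from limma. The 6 lower members run between -6.19 (Gpc4) and -0.67 (Sdc4), and only Gpc1 is called higher, at 0.42.

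Genes that act with these proteoglycans were taken as 6 lists of 92 genes, of which 71 were tested. Of these, 50 were lower in MOEHIGH cells, 7 were higher and 14 were not called, with a median log2 fold change of -0.68. Over all tested genes 32.1% were lower and 24.3% were higher, with a median of -0.05, and the counts of each list below are to be read beside these shares. The number higher was 3 when passage 103 or passage 10 was left out. In the list of other heparan sulfate core proteins, 3 of 6 tested genes were lower and 1 was higher. Hspg2, which encodes the basement membrane proteoglycan perlecan, fell to 50.2 ± 9.61 FPKM in MOEHIGH cells, against 202 ± 18.2 FPKM in MOELOW cells (log2 fold change -2.00, adjusted p = 1.87e-05). Nrp1, a VEGF and semaphorin co-receptor, was lower too (-0.65, adjusted p = 0.0026). Col18a1, which encodes the collagen XVIII core protein, rose to 71.8 ± 15.2 FPKM in MOEHIGH cells, against 18.5 ± 4.35 FPKM in MOELOW cells (1.90, adjusted p = 0.000131).

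Among genes that build the linkage region and polymerize the chain, 7 of 12 tested were lower and 3 were higher, or 1 higher without passage 103 or passage 10. Ext1 and Ext2, which together form the heparan sulfate polymerase, had log2 fold changes of -1.11 (adjusted p = 0.000137) and -0.77 (adjusted p = 0.00127). Ext1 averaged 32.0 ± 2.32 FPKM in MOEHIGH cells and 70.5 ± 8.60 FPKM in MOELOW cells. Xylt2, which starts the linkage by adding xylose (-0.78), and Extl3, which commits a chain to heparan sulfate (-0.61), also fell. B3gat3, which adds the glucuronic acid that completes the linkage, rose to 38.9 ± 6.96 FPKM in MOEHIGH cells, against 20.9 ± 1.29 FPKM in MOELOW cells (0.85, adjusted p = 0.00153). Ugdh, which makes UDP-glucuronic acid, was also called higher (0.63, adjusted p = 0.0248), but its groups overlapped and the call was lost when passage 103 (adjusted p = 0.0786), passage 8 (0.0894) or passage 10 (0.0861) was left out.

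Of the 14 tested enzymes that modify the chain or supply sulfate, 9 were lower and 1 was higher. Hs6st2, which adds 6-O-sulfate, the group that Sulf1 and Sulf2 remove, had 22.7, 19.8 and 27.1 FPKM in MOEHIGH cells, against 89.3, 72.8 and 81.8 FPKM in MOELOW cells (log2 fold change -1.77, adjusted p = 2.45e-05). Hs6st1 (-0.70, adjusted p = 0.00741), the 2-O-sulfotransferase Hs2st1 (-0.64, adjusted p = 0.00956) and Papss1, which makes the sulfate donor PAPS (-0.43, adjusted p = 0.00836), fell by less. The other PAPS synthase gene, Papss2, averaged below the 5 FPKM needed for naming and was added after its values were seen. It had the largest fall of the 14 (-2.22, limma adjusted p = 4.07e-06), with a MOELOW mean 168.7 times the MOEHIGH mean. The 6-O-sulfotransferase genes Hs6st1 and Hs6st2 and the 6-O-sulfatase gene Sulf1 were therefore all lower in MOEHIGH cells, and Sulf2 was not. Of genes outside the naming rule, chosen after their values were seen, Ndst3, an N-deacetylase/N-sulfotransferase, was the 1 higher gene of the list (1.45, adjusted p = 6.41e-05). Its better expressed relative Ndst1 was not called (0.04, adjusted p = 0.817). Ndst2 went the other way, at 3.44 FPKM in MOEHIGH cells and 6.04 FPKM in MOELOW cells (-0.67, adjusted p = 0.0021), and Ndst4 was not tested.

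The list of lysosomal enzymes that break the chain down and of sulfatase-modifying factors had 8 of 9 tested genes lower and none higher. Ids (7.89 ± 3.23 FPKM in MOEHIGH cells and 16.1 ± 0.970 FPKM in MOELOW cells) and Naglu (-0.96 on the log2 scale), both of which take part in stepwise removal of sugars or sulfates, were among them. So was Sumf1, which converts the active-site cysteine that every sulfatase needs, Sulf1 and Sulf2 included. It averaged 9.60 ± 0.837 FPKM in MOEHIGH cells and 17.7 ± 1.43 FPKM in MOELOW cells (log2 fold change -0.82, adjusted p = 0.000492).

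The list drawn up for proteins that release or bind these core proteins had 10 of 16 tested genes lower and 2 higher. None was higher without passage 103 or passage 10, and 1 was without passage 113, 8 or 9. The 1 called higher without passage 8 was neither of the 2 named below. Mmp14, a membrane protease known to shed Sdc1, fell to 13.3 ± 1.29 FPKM in MOEHIGH cells, against 137 ± 10.9 FPKM in MOELOW cells (log2 fold change -3.27, adjusted p = 3.8e-07). Gde1 (-0.99), a glycerophosphodiester phosphodiesterase, Furin (-0.90), a convertase that cleaves glypicans, and Adam10 (-0.82), a sheddase, were lower. Whether Gde1 acts on these core proteins was not tested. The 2 higher genes were Gdpd5 (0.46), which cleaves GPI anchors, and Ezr (0.44), which encodes ezrin. Both lost the call in several fits with 1 library left out. Their log2 fold changes stayed positive in those fits, at 0.31 to 0.60 for Gdpd5 and 0.37 to 0.53 for Ezr. The adjusted p of Gdpd5 was 0.0531 to 0.151 when passage 103, 113, 8, 9 or 10 was left out, and that of Ezr was 0.0509 to 0.0732 when passage 103, 8 or 10 was left out. Enzymes of chondroitin and dermatan sulfate, the other chain carried by some syndecans, had 13 of 14 tested genes lower, none higher and a median log2 fold change of -1.16. Chst12 (-2.33), a 4-O-sulfotransferase, Dsel (-1.81) and Dse (-1.11), related to epimerization in dermatan sulfate, and the polymerizing factor Chpf (-1.22) were the 4 named from that list.

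**Figure D4:**
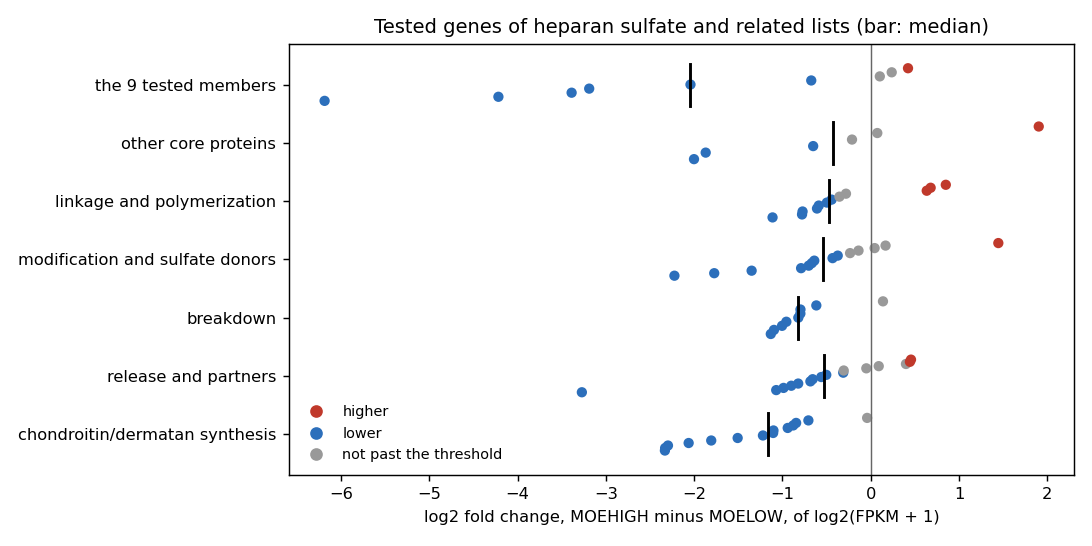
log2 fold change, MOEHIGH minus MOELOW, of log2(FPKM + 1) (horizontal axis) for each tested gene among the members and the 6 lists, 1 point a gene, with a bar at each median. The medians are -2.04 for the members and -1.16 for the chondroitin and dermatan list, the lowest of the 6 lists, and points to the right of 0 past the threshold number 7 over the 6 lists.

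Markers of other cell types moved in the same libraries, in both directions. Of 10 fibroblast markers, 6 of the 7 tested were lower in MOEHIGH cells, and their summed level was 22.4 to 32.7 FPKM in MOEHIGH cells and 596.3 to 988.0 FPKM in MOELOW cells. Most of the fibroblast sum in MOELOW cells was Col1a1, at a mean of 570.7 FPKM. Of 8 smooth muscle markers, all 6 tested were lower, with sums of 70.5 to 108 FPKM in MOEHIGH cells and 7822 to 11160 FPKM in MOELOW cells. Acta2 and Tagln, at means of 4395 and 4224 FPKM, made up most of that MOELOW sum. Smtn, at a mean of 76.45 FPKM, made up most of the MOEHIGH sum, and Myh11 and Myocd were not tested. Of 7 mesothelial markers, 4 were tested, of which Upk3b and Msln were higher and Wt1 was lower, with sums of 257.3 to 338.4 FPKM in MOEHIGH cells and 81.9 to 91.9 FPKM in MOELOW cells. Upk3b, a uroplakin gene, averaged 91.8 ± 6.83 FPKM in MOEHIGH cells and 2.88 ± 1.32 FPKM in MOELOW cells (log2 fold change 4.64, adjusted p = 2.31e-06). Of 7 ciliated cell markers in the tables, 4 were tested, of which Foxj1 (1.39) and Tubb4b (1.02) were higher and Rsph1 (-1.80) was lower.

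Endothelial markers summed to at most 0.00998 FPKM in MOEHIGH cells and to at most 4.54 FPKM in MOELOW cells. The only one tested, Kdr, was lower (-1.86, adjusted p = 6.39e-05), and Cdh5, Tie1, Vwf and Erg were listed at 0 in every library. Leukocyte markers summed to 2.63 to 3.85 FPKM in MOEHIGH cells and 1.91 to 2.96 FPKM in MOELOW cells. Csf1r was higher (0.65, adjusted p = 0.0133), Cd68 was not called, and Adgre1, Cd3e, Itgam and Tyrobp were listed at 0 in every library. Of 9 markers listed for oviductal secretory epithelium, 7 were tested. The 9 summed to 1663 to 2677 FPKM in MOEHIGH cells and 949.9 to 989.7 FPKM in MOELOW cells. Most of each sum was Krt18, at 2029 ± 531 FPKM in MOEHIGH cells and 798 ± 25.3 FPKM in MOELOW cells. Msln and Wt1 were also in the mesothelial list. The keratin genes Krt18 (1.31) and Krt7 (0.97) were higher, as was Msln, and Wt1 (-0.74) was lower. The oviductal factor Pax8, with Krt8 and Ovgp1, was not called, and the epithelial adhesion genes Epcam and Cdh1 were below 0.1 FPKM in every library. Ovgp1 was close to the filter, at means of 0.887 FPKM in MOEHIGH cells and 0.875 FPKM in MOELOW cells. The part of these markers in the changes of Gpc1, Gpc4, Gpc6, Sdc2, Sdc3, Sdc4 and Sulf1 was not tested, and in bulk RNA fewer cells of a type and less RNA per cell cannot be told apart.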

How the data were processed

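Total RNA of 6 MOE libraries, 3 MOEHIGH and 3 MOELOW, was sequenced by the authors after ribosomal RNA removal with a stranded kit. Per the labels, reads were aligned to mm10 with TopHat2 2.0.8b, and the deposited tables hold FPKM made by the authors with Cuffdiff 2.1.1. No counts were used, depth in reads is unknown, and a listed 0 can be a failed estimate.

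Each table held 23141 entries. Where a symbol was repeated (236 symbols), its entry of highest mean was used. limma 3.58.1 under R 4.3.3 (variance trend, no block) was fitted to log2(FPKM + 1) of genes averaging 0.5 FPKM or more, with Benjamini-Hochberg adjustment. An exact permutation test of 3 against 3 libraries cannot go below 0.1 and was not used.

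The members, lists and tests were chosen with earlier results of these data known. Besides the members, genes were named by rule: up to 4 called genes per direction and list by size of change, averaging 5 FPKM or more, the 3 nearest patterns, and the X-chromosome neighbors. Some genes that the rule names are not reported here. Alternatives changed the pseudocount, filter, scaling, trend, block, threshold and libraries.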

Additional observations from a re-analysis of the deposited data

How the results depend on the processing

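Gpc4, Gpc6, Sdc2, Sdc3 and Sulf1 kept their direction and their call under all 18 alternatives, and Sdc4 under all but the test against a 2-fold change. The count of higher members, 1 in the report, was 2 with no filter on low values (Gpc1 and Sdc1) and 0 at an adjusted p of 0.01 or against a 2-fold change, and it ranged from 0 to 3 when 1 library was left out. The log2 fold change of Sulf2 ranged from -0.04 to 0.39 over the same fits and turned negative without passage 90 (-0.0447) and without passage 103 (-0.0375). The cause was not tested. Listed pathway genes called higher ranged from 3 to 7. Over all genes, 2350 were lower among genes averaging 5 FPKM or more, where fewer genes were tested, and 303 were higher and 907 lower against a 2-fold change, against 2826 higher and 3734 lower in the report's fit. With the replicate number as a block, 1 member was higher and 6 were lower, so no member's call changed, and deviations of same-numbered libraries correlated at -0.024, -0.147 and 0.123, and not every library correlated best with its own number. The median of all tested genes was -0.11 with equal totals and 0.10 with quantile normalization in place of -0.05, and Gpc1 was 0.36 and 0.45 in those fits and stayed called. Over the 18 alternatives the adjusted p ran between 0.00743 and 1 for Gpc1, 0.0161 and 1 for Sdc1, and 0.0134 and 1 for Sulf2, with the value of 1 from the test against a 2-fold change. Depth in reads is unknown, which limits statements on values below 0.1 FPKM.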
